A study of Mus musculus with 6 samples.

Results

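The genes described here are those of sphingosine 1-phosphate (S1P) sensing and turnover: the S1P receptors *S1pr1* to *S1pr5*, the receptor antagonist *Cd69*, and the enzymes *Sphk1*, *Sphk2*, *Sgpl1* and *Sgpp1*. They were chosen by name, as every probe set that the annotation of the Affymetrix mouse whole-genome array assigns to exactly 1 gene, that gene being one of these 10. All 10 genes were measured, by 18 of the 45037 probe sets tested, and they are 10 of 18194 genes. RNA came from activated CD8 T cells of C57BL/6 mice, 8 to 12 weeks old, that carry the P14 transgenic T cell receptor against a peptide of lymphocytic choriomeningitis virus. In both groups splenocytes were stimulated with the gp33-41 peptide for 48 hours, transduced with retrovirus 18 hours after its addition, and grown in IL-2 for a further 48 hours, to day 4, when GFP-positive cells were sorted. The GFP-KLF2 group (3 arrays) received a fusion of GFP with KLF2, a transcription factor that T cells normally lose on activation, and the evGFP group (3 arrays) received an empty GFP vector. Another passage of the study's text gives a longer IL-2 culture, and neither the number of mice behind a replicate nor the number of integrated vector copies is given in the sources used here. The comparison asks how S1P sensing and metabolism differ when KLF2 is kept on in cytotoxic T lymphocytes (CTL).

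S1P is a lipid that is abundant in blood and lymph and scarce inside lymphoid tissue, and lymphocytes follow this gradient out of lymph nodes, spleen and thymus. The exit receptor is S1P1, the product of *S1pr1*, a known target of KLF2 in T cells. Activated T cells are held in the tissue when *S1pr1* is turned off and when CD69, a membrane protein made early after activation, binds S1P1 and takes it off the surface. Inside cells S1P is made by the sphingosine kinases SPHK1 and SPHK2, turned back to sphingosine by phosphatases such as SGPP1, and broken down for good by the lyase SGPL1.

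Of the 10 genes, 3 rose in GFP-KLF2 CTL, namely *S1pr1*, *S1pr4* and *Cd69*, each by more than 2-fold, 1 fell, the S1P phosphatase gene *Sgpp1*, and 6 did not pass the test. Over all 18194 genes 6.22% rose and 8.35% fell, 14.6% passed in either direction, and 2.23% rose and 0.715% fell at least 2-fold. A gene was called at an adjusted p under 0.046 in limma (Benjamini-Hochberg over 45037 probe sets), and where several probe sets read a gene, the brightest one on average stands for it. Counted by probe set, 3 of the 18 rose and 3 fell, against 4.76% and 6.39% of all 45037 probe sets. Levels are log2 intensities. The arrays had medians of 5.64 to 5.67 and lower quartiles of 4.18 to 4.25, and a level near or under the quartile marks a dim probe set. The median log2 fold change of the 10 genes was 0.14, against -0.01 over all genes. Since the arrays measure RNA of a sorted population, more cells expressing a gene and more RNA per cell cannot be told apart.

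*S1pr1* (Entrez gene 13609, 1 probe set), which encodes the exit receptor, showed the highest fold change of the 10. Its level was 9.49, 9.46 and 9.53 in the 3 GFP-KLF2 arrays, against 7.62, 7.79 and 7.06 in the 3 evGFP arrays. The groups lay 1.67 log2 units apart at their nearest arrays, and the GFP-KLF2 arrays were nearly equal (SD 0.0338) where the evGFP arrays spread more widely (SD 0.384). The log2 fold change was 2.00 (standard error 0.18, 95% confidence interval 1.59 to 2.41, limma adjusted p = 0.00125), a 4.01-fold higher level. It passed with each array left out in turn, with a log2 fold change of 1.79 to 2.15.

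*S1pr4* (Entrez gene 13611, 1 probe set) encodes a receptor found mainly on leukocytes. Its level was 11.83, 11.64 and 11.57 in GFP-KLF2 arrays and 10.35, 10.43 and 10.22 in evGFP arrays. Every GFP-KLF2 array thus lay above every evGFP array, by at least 1.14. The level averaged 11.68 ± 0.135 in GFP-KLF2 CTL and 10.33 ± 0.107 in evGFP CTL (SD, n = 3 each), a log2 fold change of 1.35 (standard error 0.10, limma adjusted p = 0.000705) or 2.54-fold. These arrays placed *S1pr4* between the 96.2nd and 96.9th percentile of all probe sets in GFP-KLF2 CTL and between the 90.5th and 91.9th in evGFP CTL. *S1pr4* passed with each array left out (1.27 to 1.40).

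The remaining 3 receptors did not pass the test. *S1pr2* (Entrez gene 14739), which encodes a receptor that restrains migration in several cell types, was read by a pair of probe sets. The brighter, of a kind that can cross-hybridise, gave 6.84, 7.03 and 6.98 in GFP-KLF2 arrays, against 6.93, 6.97 and 7.05 in evGFP arrays, and the groups overlapped. Its log2 fold change of -0.03 (95% confidence interval -0.22 to 0.16, limma adjusted p = 0.882) did not pass, nor did that of the dimmer probe set, 0.15 (-0.30 to 0.60).

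*S1pr5* (Entrez gene 94226), whose product guides natural killer cells out of lymph node and bone marrow, was dim throughout. Its levels were 4.89, 3.99 and 3.86 in GFP-KLF2 arrays, against 3.88, 3.79 and 3.81 in evGFP arrays. Only GFP-KLF2 replicate 1 reached above the lower quartile, and the log2 fold change of 0.42 (95% confidence interval -0.15 to 0.99, limma adjusted p = 0.365) became 0.10 without that array.

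*S1pr3* (Entrez gene 13610), best known from heart and vessel wall, had 3 probe sets that did not move alike. The brightest had 5.17, 5.47 and 5.23 in GFP-KLF2 arrays and 5.05, 5.47 and 5.50 in evGFP arrays, a log2 fold change of -0.05 (limma adjusted p = 0.882). The second probe set by brightness gave 4.15, 4.34 and 5.46 in GFP-KLF2 arrays, against 4.67, 5.48 and 6.65 in evGFP arrays. Both groups spread widely there and overlapped, but each GFP-KLF2 array was lower than the evGFP array of the same replicate number, by -0.52, -1.15 and -1.18. The log2 fold change of -0.95 did not pass (limma adjusted p = 0.325), whereas it passed with the replicate number as a block (limma adjusted p = 0.00832). The third probe set had 0.16 (adjusted p = 0.44).

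**Figure D1:**
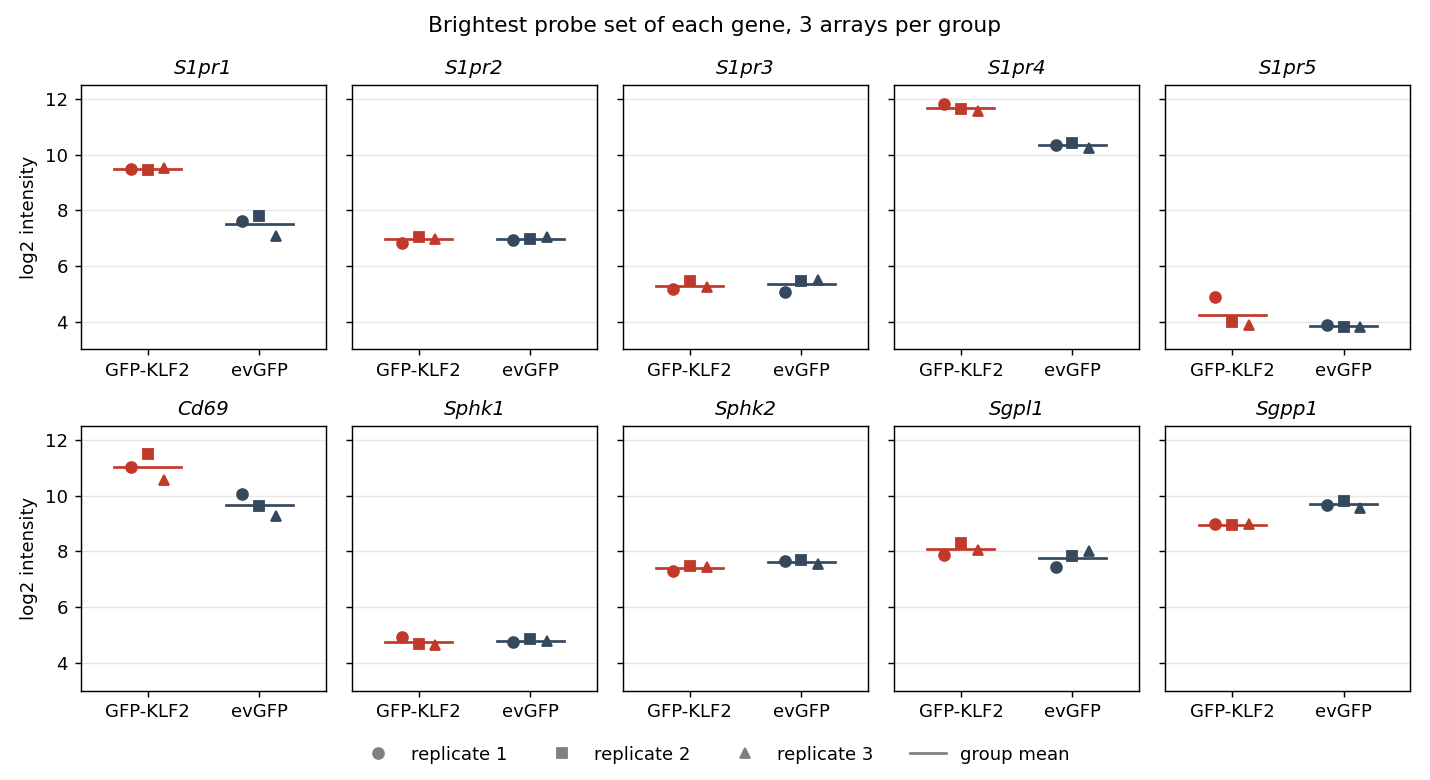
Log2 intensity of the brightest probe set of each of the 10 genes, with a panel per gene, GFP-KLF2 arrays in red on the left and evGFP arrays in dark blue on the right. Marker shapes give the replicate number and horizontal lines the group means. The groups stand apart by 1.67 for *S1pr1*, 1.14 for *S1pr4*, 0.51 for *Cd69* and 0.58 for *Sgpp1*, and by only 0.06 for *Sphk2*.

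*Cd69* (Entrez gene 12515, 1 probe set) rose together with the receptor that its product antagonises. Its level was 11.04, 11.49 and 10.58 in GFP-KLF2 arrays, against 10.07, 9.64 and 9.27 in evGFP arrays. The groups did not overlap but spread more than those of *S1pr4*, with means of 11.03 ± 0.454 in GFP-KLF2 CTL and 9.66 ± 0.403 in evGFP CTL (SD, n = 3 each). The log2 fold change was 1.38 (standard error 0.26, 95% confidence interval 0.76 to 1.99, limma adjusted p = 0.0174), or 2.59-fold. Without GFP-KLF2 replicate 1 or 2 or evGFP replicate 2 it did not pass (adjusted p = 0.0594, 0.0481 and 0.0654), with log2 fold changes of 1.37, 1.15 and 1.37.

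The changes of *S1pr1*, *S1pr4* and *Cd69* were set against each other within arrays, which compares differences and not levels. *S1pr1* rose by 0.66 more than *S1pr4* on the log2 scale, by 0.38, 0.46 and 1.12 in the 3 pairs of arrays. A 2-sided exact permutation test gave p = 0.1, the smallest that 3 against 3 arrays can give, and 0.3 after Benjamini-Hochberg adjustment over the 3 comparisons made. *S1pr1* rose by 0.63 more than *Cd69*, but by 0.90, -0.18 and 1.16 in the 3 pairs (exact p = 0.2, adjusted 0.3). *S1pr4* and *Cd69* differed in change by -0.03, with 0.52, -0.64 and 0.04 in the pairs (exact p = 0.9, adjusted 0.9), so their order turned between replicates.

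Among the enzymes *Sgpp1* (Entrez gene 81535), which encodes an S1P phosphatase of the endoplasmic reticulum, fell on all 3 of its probe sets. The brightest gave 8.97, 8.95 and 8.97 in GFP-KLF2 arrays, against 9.67, 9.83 and 9.55 in evGFP arrays. The GFP-KLF2 arrays were again nearly equal and all below the evGFP arrays, with a log2 fold change of -0.72 (standard error 0.09, limma adjusted p = 0.00386), which is 1.65-fold lower. The other probe sets fell by 0.61 (8.81, 8.67 and 8.70 in GFP-KLF2 arrays, against 9.42, 9.38 and 9.20 in evGFP arrays, adjusted p = 0.00734) and by 0.80 (7.35, 7.27 and 7.25 in GFP-KLF2 arrays, against 8.19, 8.07 and 7.99 in evGFP arrays, adjusted p = 0.00207). The fall was under 2-fold on each of them, and the brightest passed with each array left out (-0.79 to -0.65).

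*Sphk2* (Entrez gene 56632), the sphingosine kinase found in nucleus and mitochondria as well as cytoplasm, had slightly lower values on both of its probe sets. The brighter gave 7.30, 7.48 and 7.45 in GFP-KLF2 arrays and 7.66, 7.68 and 7.54 in evGFP arrays. The dimmer gave 5.13, 5.26 and 5.23 in GFP-KLF2 arrays and 5.56, 5.39 and 5.38 in evGFP arrays. Neither pair of groups overlapped, yet the log2 fold changes of -0.22 and -0.24 did not pass (limma adjusted p = 0.158 and 0.124). Groups that do not overlap were common in these arrays, at 34.9% of all genes, and were seen for 5 of the 10 genes here.

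*Sphk1* (Entrez gene 20698), the mainly cytoplasmic kinase, was dim. Its brighter probe set had 4.93, 4.67 and 4.65 in GFP-KLF2 arrays and 4.74, 4.84 and 4.78 in evGFP arrays (log2 fold change -0.04, 95% confidence interval -0.26 to 0.19, limma adjusted p = 0.88), and the dimmer one gave 0.20 (adjusted p = 0.349). The lyase gene *Sgpl1* (Entrez gene 20397) had 7.88, 8.29 and 8.06 in GFP-KLF2 arrays and 7.44, 7.84 and 8.01 in evGFP arrays on its brighter probe set. The groups overlapped, and its log2 fold change of 0.31 (95% confidence interval -0.07 to 0.69, limma adjusted p = 0.307) had the opposite sign to that of its dimmer probe set, -0.12 (adjusted p = 0.54).

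**Figure D2:**
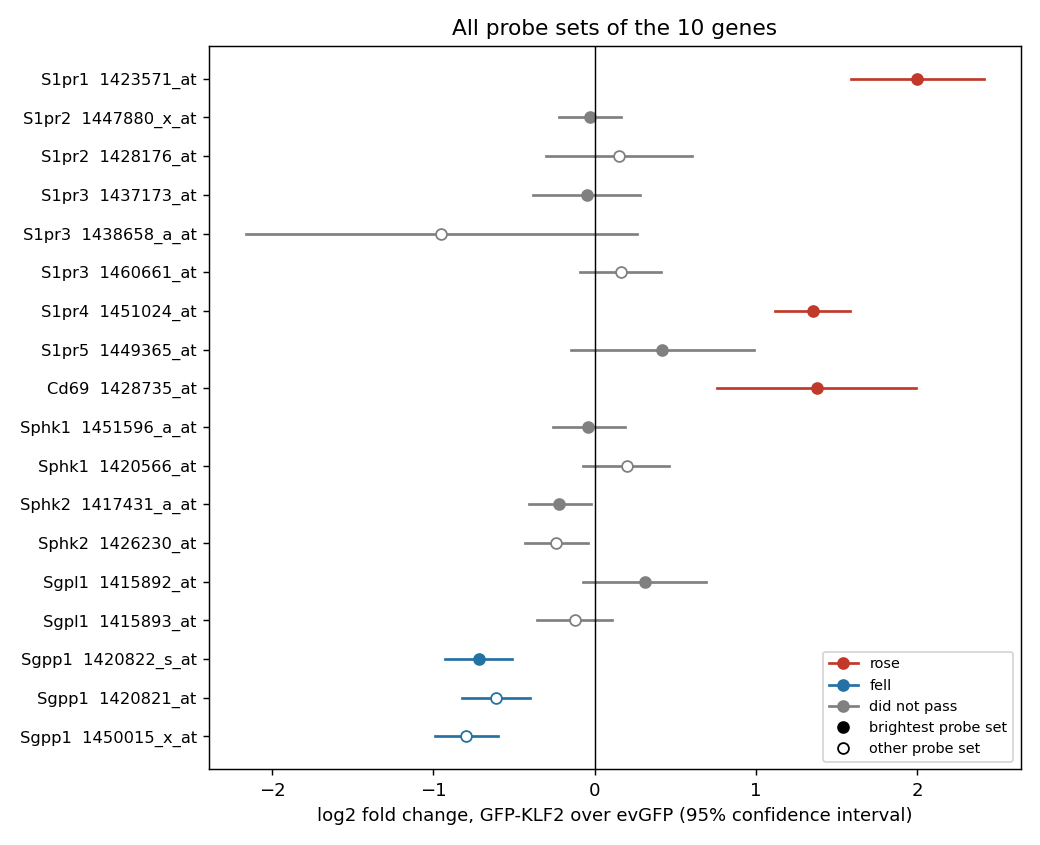
Log2 fold change of GFP-KLF2 over evGFP CTL for all 18 probe sets of the 10 genes, with 95% confidence intervals from limma; filled points are the brightest probe set of a gene. Colours mark the call: red for a rise, blue for a fall, grey for neither. The 3 *Sgpp1* probe sets lie together between -0.80 and -0.61, while those of *S1pr3* range from -0.95 to 0.16.

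Arrays of the same replicate number deviated alike from their group means over all probe sets, so differences within pairs are also given. They were 1.87, 1.67 and 2.47 for *S1pr1*, 1.48, 1.21 and 1.35 for *S1pr4*, 0.97, 1.85 and 1.31 for *Cd69*, and -0.70, -0.88 and -0.58 for *Sgpp1*. The 4 called genes thus moved one way in all 3 pairs, which had to be so because their groups did not overlap. The same holds for the 34.9% of all genes whose groups did not overlap. With the replicate number as a block the count stayed at 3 that rose and 1 that fell, against 8.58% and 12.1% of all genes. *Sphk2* (-0.36, -0.20 and -0.09, also without overlap), *Sgpl1* (0.43, 0.45 and 0.05) and *S1pr5* (1.01, 0.20 and 0.05) moved one way in all 3 pairs as well. None of these passed with the replicate block (limma adjusted p = 0.148, 0.0997 and 0.193).

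**Figure D3:**
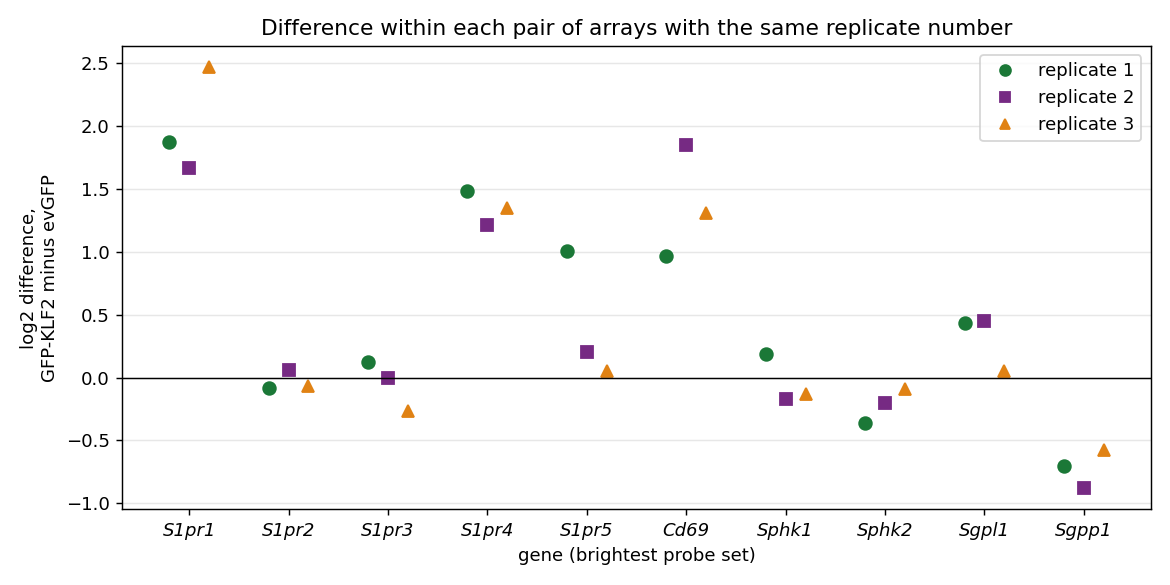
Log2 difference between the GFP-KLF2 and the evGFP array of the same replicate number, for the brightest probe set of each of the 10 genes. All 3 points of *S1pr1* lie between 1.67 and 2.47 and all 3 of *Sgpp1* between -0.88 and -0.58, while *S1pr2*, *S1pr3* and *Sphk1* have points on both sides of 0.

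Promoter windows of 300 bases (250 before to 50 after a transcript's start, RefSeq, GRCm38.p6) were found for 8 of the 10 genes. There was none for *S1pr1* or *Cd69*, so the description does not cover them. Those of *S1pr4*, which rose, and *Sgpp1*, which fell, are shown because they belong to the called genes with a window; that of *S1pr4* lies at chr10:81500088-81500387 and that of *Sgpp1* at chr12:75735680-75735979, both on the minus strand. They are written 5′ to 3′ with each match to CACCC, the core of the box bound by KLF zinc fingers, or to its reverse complement GGGTG in capitals.
S1pr4: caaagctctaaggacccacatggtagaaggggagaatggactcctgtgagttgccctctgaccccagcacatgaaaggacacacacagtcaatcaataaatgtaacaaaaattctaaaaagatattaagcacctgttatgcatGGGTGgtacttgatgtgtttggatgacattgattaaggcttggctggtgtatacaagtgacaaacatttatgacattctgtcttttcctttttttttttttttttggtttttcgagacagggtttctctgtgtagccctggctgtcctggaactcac
Sgpp1: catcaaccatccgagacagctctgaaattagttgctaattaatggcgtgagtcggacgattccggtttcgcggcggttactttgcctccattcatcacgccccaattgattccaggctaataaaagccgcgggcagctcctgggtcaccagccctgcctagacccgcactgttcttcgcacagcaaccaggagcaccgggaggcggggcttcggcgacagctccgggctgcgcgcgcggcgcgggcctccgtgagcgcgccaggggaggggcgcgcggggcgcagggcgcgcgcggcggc
The *S1pr4* window held 1 match, a GGGTG that starts at base 144 counted from its 5′ end, and the *Sgpp1* window held 0. Of 32851 promoter windows of this length 57.5% held at least 1 match and 25.7% at least 2, so that a single match is common. Among receptors that did not pass, *S1pr2* had 1 match and *S1pr3* and *S1pr5* had 2 each. The *Sgpl1* window held 0, the windows of *Sphk2* 2 each, and the 5 overlapping or neighbouring windows of *Sphk1* 0, 4, 3, 3 and 3. A match is a description of letters and not a binding site.

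Genes around S1P in lipid metabolism moved in both directions. Of 39 listed enzymes and transporters of S1P and sphingolipids 35 were measured, and 3 rose, 5 fell and 27 did not pass (8.57% and 14.3%, against 6.22% and 8.35% of all genes), with a median log2 fold change of -0.03. *Plpp3*, a lipid phosphatase that can dephosphorylate extracellular S1P, fell by 1.19 on the log2 scale, with 5.07, 5.39 and 4.94 in GFP-KLF2 arrays and 6.41, 6.75 and 5.82 in evGFP arrays (limma adjusted p = 0.0178). This probe set was dim, with a mean of 5.72, and the other one of *Plpp3* had -0.66 and did not pass. The ceramide synthases *Cers6* and *Cers4*, which attach acyl chains of different length, moved in opposite directions. *Cers6* rose by 1.04 (8.34, 8.08 and 7.67 in GFP-KLF2 arrays, against 7.04, 6.72 and 7.19 in evGFP arrays, adjusted p = 0.014), and *Cers4* fell by 0.88 (7.29, 6.87 and 7.44 in GFP-KLF2 arrays, against 8.03, 8.03 and 8.17 in evGFP arrays, adjusted p = 0.0105). *Ugcg*, which turns ceramide into glucosylceramide, rose by 0.71 (adjusted p = 0.0118). The other 2 probe sets of *Cers4* had -0.53 and -0.48, of which 1 fell, and the other 3 of *Ugcg* had 0.51 to 1.11, of which 2 rose. The S1P exporters *Spns2* (-0.08) and *Mfsd2b* (-0.07) and the second S1P phosphatase gene *Sgpp2* (0.11) did not pass. Their probe sets lay under the array median, with means of 5.44, 4.14 and 4.00, which limits what can be seen of them. *Mfsd2b* and *Sgpp2* were under the lower quartile. *Plpp3* did not pass without GFP-KLF2 replicate 1 or 3 or evGFP replicate 1 or 2 (adjusted p = 0.0509 to 0.0649), nor *Cers6* without GFP-KLF2 replicate 2 or evGFP replicate 1 or 2 (0.0464 to 0.0537). In the list 1 gene rose without GFP-KLF2 replicate 2 or evGFP replicate 1 or 2, and 2 or 3 fell with any single array left out. With the replicate block 5 of the 35 rose and 4 fell, against 8.58% and 12.1% of all genes.

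Of 32 listed genes that couple S1P receptors to the cell or switch them off 30 were measured, and 4 rose, 3 fell and 23 did not pass (13.3% and 10% of the list, against 6.22% and 8.35% of all genes), with a median of 0.06. The share that fell was thus near that of all genes. The 3 genes that fell encode RGS proteins, which speed the shutdown of G protein signals. *Rgs18* fell by 1.58 (4.77, 4.63 and 5.63 in GFP-KLF2 arrays, against 6.43, 6.35 and 6.98 in evGFP arrays, limma adjusted p = 0.0132), *Rgs10* by 1.16 (8.65, 8.42 and 9.30 in GFP-KLF2 arrays, against 9.48, 9.92 and 10.45 in evGFP arrays, adjusted p = 0.0416) and *Rgs16* by 0.65 (adjusted p = 0.0185). The other probe set of *Rgs18* also fell, by 1.06, and of the other 2 of *Rgs16*, at -1.41 and -0.43, 1 passed. The brightest probe set of *Rgs18* had a mean of only 5.80, and without dim probe sets (mean under 6) 2 genes of the list fell. The other 5 RGS genes measured lay between -0.32 (*Rgs1*) and 0.04 (*Rgs3*) and did not pass. Among those that rose were *Grk6*, a kinase that phosphorylates receptors for arrestin binding, and *Gna13*, a G protein subunit downstream of S1P2, at 0.42 each on the brightest probe set (adjusted p = 0.0457 and 0.038). The other 6 probe sets of *Gna13* had 0.34 to 1.00, of which 4 rose, and the other 2 of *Grk6* had 0.34 and 0.49, of which 1 rose. *Msn* (0.38, adjusted p = 0.0149) and *Arhgef1* (0.37, adjusted p = 0.0286) rose as well. The other probe set of *Msn* also rose, by 0.45, and that of *Arhgef1* had 0.40 and did not pass. *Gnai2* and *Gnai3*, the inhibitory G proteins through which S1P1 signals, had 0.08 and 0.02 and did not pass. The count was sensitive to single arrays: with any one left out 0 to 2 genes rose, and the number that fell was 0 without GFP-KLF2 replicate 1 and 1 without GFP-KLF2 replicate 2 or evGFP replicate 2. *Rgs18* did not pass without GFP-KLF2 replicate 1 (0.0509), *Rgs10* without GFP-KLF2 replicate 1 or 2 or evGFP replicate 2 or 3 (0.0882 to 0.125), and *Rgs16* without replicate 1 or 2 of either group (0.0608 to 0.067). *Grk6* passed only without GFP-KLF2 replicate 2 and *Gna13* only without evGFP replicate 3. *Arhgef1* too passed only without GFP-KLF2 replicate 2, and *Msn* did not pass without replicate 1 or 2 of either group (0.0514 to 0.0548). With the replicate block 5 of the 30 rose and 3 fell, against 8.58% and 12.1% of all genes, and *Grk6* did not pass (0.048).

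Of 13 listed receptors for other lysophospholipids and related lipids 12 were measured, and 0 rose, 1 fell and 11 did not pass (0% and 8.33%, against 6.22% and 8.35% of all genes, so that the share that fell was that of all genes), with a median log2 fold change of -0.40. *Gpr174*, a lysophosphatidylserine receptor, fell by 0.88 (7.55, 7.25 and 8.02 in GFP-KLF2 arrays, against 8.62, 8.27 and 8.56 in evGFP arrays, limma adjusted p = 0.0287), while its other probe set had -0.62 and did not pass. The probe set that fell is of a kind that can cross-hybridise, and without such probe sets 0 genes of the list fell. With the replicate block 4 of the 12 fell, against 12.1% of all genes: *Gpr174* (adjusted p = 0.00659), *Gpr34* (0.00433), *Lpar6* (0.00597) and *Gpr132* (0.0143), with log2 fold changes of -0.88, -0.91, -0.78 and -0.44. *Gpr183*, a receptor for oxysterols that positions activated lymphocytes, had -0.54 and did not pass in either fit. *Gpr174* itself passed only without GFP-KLF2 replicate 3. The number that fell was 0 without GFP-KLF2 replicate 1 or 2 or evGFP replicate 2 or 3, and 2 without evGFP replicate 1. No difference between these receptors and the S1P receptors was tested.

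**Figure D4:**
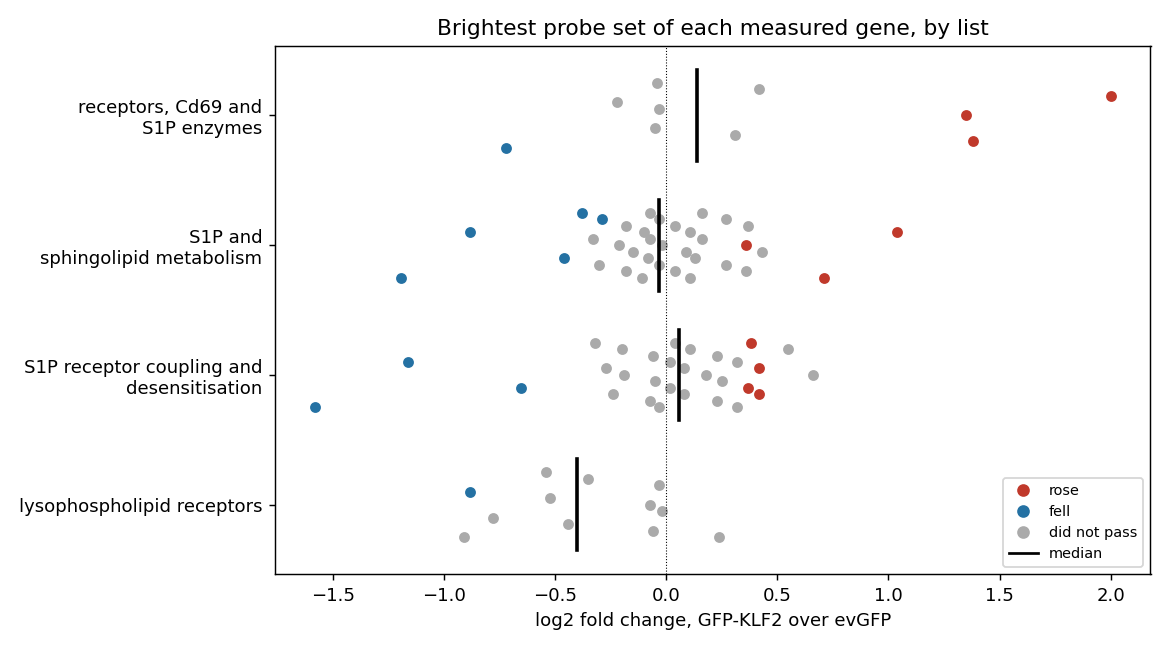
Log2 fold change of GFP-KLF2 over evGFP CTL for the brightest probe set of each measured gene, in rows for the 10 genes described here and the 3 wider lists. Points are genes, coloured red for a rise, blue for a fall and grey for neither, and black bars are medians. *S1pr1*, *S1pr4* and *Cd69* are the 3 points furthest right, and the median of the lysophospholipid receptors is -0.40.

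The genes whose levels ran most like those of the risen genes over the 6 arrays were named by Pearson's correlation among 10510 genes with a mean log2 intensity of at least 6. For *S1pr1* these were *Rras2*, *Tcp11l2*, *Rap1gap2*, *Trappc6b* and the tetraspanin gene *Cd81* (r = 0.9927 to 0.9967), with log2 fold changes of 0.89, 2.16, 2.73, 0.48 and 2.31. For *S1pr4* they were the potassium channel gene *Kcnn4*, *Grhl3*, *Kdm3a*, *Rom1* and *Tle6* (r = 0.9975 to 0.999). *Grhl3* averaged 8.37 in GFP-KLF2 and 4.04 in evGFP arrays, so it met the intensity limit only through the GFP-KLF2 group. For *Cd69* they were *Coq10b*, the urokinase receptor gene *Plaur*, *Crip2*, the kinase gene *Fyn* and *Srp19* (r = 0.993 to 0.9968), so that the 3 sets held no gene in common. With 6 arrays in 2 groups, a gene that separates the groups has a high r with any other that does, and these values are a description.

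As a check of the cells, the CD8 T cell genes *Cd8a*, *Cd8b1*, *Cd3e* and *Cd3g* were all bright (10.04 to 13.34 over the 6 arrays), with a median log2 fold change of -0.11. Of the 4, *Cd8b1* rose by 0.45 (limma adjusted p = 0.0107), and *Cd8a* (-0.14), *Cd3e* (-0.08) and *Cd3g* (-0.22) did not pass. Of the markers of other cells, 0 of 2 measured for NK cells, 0 of 3 for B cells, 0 of 5 for myeloid cells and 0 of 5 for endothelial cells passed in either direction, and 1 of 3 for CD4 T cells rose (*Zbtb7b*, 0.45). The summed intensity of the CD4 T cell markers was 340.9 to 373.1 in GFP-KLF2 arrays and 261 to 306 in evGFP arrays. Of these markers *Cd4* (0.11) and *Foxp3* (0.19) did not pass, and each overlapped between the groups. For the other sets the groups overlapped: the sum was 28.5 to 33.2 in GFP-KLF2 and 26.8 to 30.5 in evGFP arrays for NK cells, and 190.1 to 316 in GFP-KLF2 and 202 to 219.1 in evGFP arrays for B cells. It was 219.9 to 241.8 in GFP-KLF2 and 198.2 to 223.5 in evGFP arrays for myeloid cells, and 174.1 to 195.6 in GFP-KLF2 and 171.8 to 177.6 in evGFP arrays for endothelial cells. The part of the CD4 T cell markers, or of any other of these sets, in these results was not tested. The probe set of *Klf2* had 9.83, 9.67 and 8.74 in GFP-KLF2 arrays and 10.99, 10.37 and 8.80 in evGFP arrays (log2 fold change -0.64, limma adjusted p = 0.552). It lies outside the part of *Klf2* that the construct holds, so it checks no label.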

How the data were processed

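RNA (250 ng per array) was hybridised to Affymetrix mouse whole-genome 3′ expression arrays. The authors normalised them by RMA (background correction, quantile normalisation and a summary per probe set) and tested them with limma, versions not given in the sources used here, and deposited intensity values on a linear scale (5.738 to 33637.8). Raw scans were not used here. The log2 of each value was taken, and 64 control probe sets of 45101 were removed. Of the rest 34945 were annotated to 1 gene and 932 to several. GFP-KLF2 was compared with evGFP by limma 3.58.1 (R 4.3.3), 1 constant per group, 2-sided. The methods print the threshold as 0.046%; an adjusted p under 0.046 was used and 0.00046 was an alternative. Titles call the samples biological replicates.

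Pairing by replicate number was checked: departures of the arrays from their group means had r of 0.33, 0.44 and 0.47 for equal numbers and -0.38 to 0.06 for different ones. Pearson's r between arrays was 0.993 to 0.996 within groups and 0.982 to 0.990 between them. The genes, lists, rules and tests were chosen with earlier results of these data known. Besides the 10 genes and *Klf2*, the text names up to 4 called genes of a list by size of change and the 5 genes most correlated with *S1pr1*, *S1pr4* and *Cd69*. *Spns2*, *Mfsd2b*, *Sgpp2*, *Gnai2*, *Gnai3*, *Gna13*, *Msn*, *Arhgef1*, *Rgs1*, *Rgs3*, *Gpr183*, *Gpr34*, *Lpar6*, *Gpr132* and *Arrb1* were named after their values were seen. The fit was also run on simulated data with 200 changed genes, and its outcome there is not reported here. The alternatives were other thresholds, removal of dim or cross-hybridising probe sets, the mean of a gene's probe sets, median centring, cyclic loess, a robust prior with an intensity trend, weights per array, the replicate block and leaving out each array. The receptor proteins were not analysed here.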

Additional observations from a re-analysis of the deposited data

How the results depend on the processing

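Over the alternatives tried, *S1pr1*, *S1pr4*, *Cd69* and *Sgpp1* kept their direction. At an adjusted p under 0.00046 none of the 10 genes passed: 0 rose and 0 fell, and 0 genes of each wider list passed, since this threshold left 34 of 18194 genes, against 2650 at 0.046. With an array left out 1147 to 2173 genes passed. *Cd69* was also lost without single arrays, so that 2 or 3 of the 10 genes rose with an array left out. Signs turned only for genes that did not pass. *S1pr2* had 0.06 with the mean of its probe sets, 0.15 without cross-hybridising ones and 0.02 with cyclic loess, and *Sphk1* had 0.08 with the mean. With single arrays left out *S1pr2* had -0.07 to 0.02, *S1pr3* -0.20 to 0.03 and *Sphk1* -0.13 to 0.02.

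Counts in the wider lists moved more. Of the sphingolipid genes 5 rose with the replicate block and 3 fell with cyclic loess. Of the receptor coupling genes 9 rose without dim probe sets, 7 with the mean of probe sets, 10 with cyclic loess and 8 with the intensity trend. Leaving out dim probe sets also removed some of the listed genes. Of the lysophospholipid receptors 2 fell with the mean of probe sets, 0 without cross-hybridising probe sets and 4 with the replicate block. The number of all genes that passed in either direction moved as well. It was 3193 of 10511 without dim probe sets and 2534 of 17904 without cross-hybridising ones. Of 18194 genes, 2832 passed with the mean of probe sets, 2349 with cyclic loess and 3011 with the intensity trend. With the replicate block 3764 passed, against 2650 in the fit used for the calls. For the other alternatives, rises and falls over all genes are not given apart. The list counts in those settings therefore have no share of the same direction beside them. With single arrays left out, 1 to 3 sphingolipid genes rose and 2 to 3 fell, 0 to 2 receptor coupling genes rose and 0 to 3 fell, and 0 to 2 lysophospholipid receptors fell. The cause of these shifts was not tested. The replicate block changed no call among the 10 genes at their brightest probe set. The brightest probe sets of *S1pr3*, *S1pr5* and *Sphk1* lay under the array median, which limits what can be seen of them, and 3 arrays per group limit the precision of all values.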

Other observations

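*Arrb1*, an arrestin that takes part in receptor internalisation, had 8.68, 6.15 and 8.02 in GFP-KLF2 arrays and 6.40, 6.45 and 8.03 in evGFP arrays, so that replicate 3 was high in both groups while replicate 1 was high only in GFP-KLF2 (log2 fold change 0.66, limma adjusted p = 0.64).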
